A study of Mus musculus with 8 samples.

Results

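Tumors and the myeloid cells within them can restrain T cells by consuming amino acids and by releasing small metabolites. The 6 genes described here encode enzymes and a receptor of 4 such routes, in which tryptophan is turned into kynurenine (Ido1), arginine is oxidised to nitric oxide (Nos2), arachidonic acid is turned into prostaglandins (Ptgs2), and extracellular ATP is degraded to adenosine that is then sensed by lymphocytes (Entpd1, Nt5e, Adora2a). They were chosen by name for these pathways, with earlier results of these data known. All 6 were among the 750 immune-related genes of a NanoString nCounter mouse panel.

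IDO1 opens the kynurenine pathway, and local tryptophan shortage together with its products slows T cell proliferation. Inducible nitric oxide synthase, the product of Nos2, oxidises arginine to nitric oxide in macrophages activated by IFN-γ and microbial products, and macrophages exposed to IL-4 and IL-13 take on another state, called alternative activation. CD39 and CD73, the products of Entpd1 and Nt5e, act in turn on extracellular ATP, and adenosine bound to the receptor encoded by Adora2a raises cyclic AMP in T cells and dampens them.

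RNA came from whole peritoneal tumors of C57BL/6 mice that had received MC38 cells, a murine colon cancer line, in the peritoneal cavity. The animals were wild-type males aged 7 to 8 weeks. In the treated group the STING agonist RR-CDA, a synthetic cyclic dinucleotide, was injected intraperitoneally at 15 µg, first on day 7 after implantation and again 3 days later, and control mice received PBS on the same 2 occasions. Tumors were collected 10 days after the first injection, 4 from each group, and the data were pooled from 2 experiments, without a record in the labels of which tumor came from which. The labels name the tissue as colon, although the tumors grew from an implanted line, and epithelial markers were low in them, with Epcam between 3.70 and 19.8 and Cdh1 between 11.0 and 34.6 normalized counts.

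The assay counts color-coded probes bound to single transcripts, without amplification. The counts of the 750 genes summed to between 241724 and 403150 in PBS-treated tumors and to between 241506 and 414698 in STING agonist-treated tumors. Background was set in each tumor at 2 SD above the mean of its 8 negative controls and averaged 8.62 counts. Normalized counts are counts divided by a factor from the geometric mean of 20 housekeeping genes. PBS 2 and PBS 4 differed by less than the sampling noise in 358 genes of moderate count (20 to under 300), where chi-square divided by its degrees of freedom was 0.404 for this pair and 5.89 to 12.6 for the 11 other pairs within a group. In the 159 genes with more counts it was 3.11 for this pair and 29.8 to 173 for the others. They were therefore averaged and counted as 1 sample, so that n = 3 PBS and n = 4 STING agonist in every mean and test unless all 8 tumors are named. The labels do not say that samples are separate animals, and p-values measure only the spread between these samples. In bulk RNA, fewer cells of a type and less RNA per cell cannot be told apart.

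After STING agonist treatment, Ido1 was 2.82-fold higher on average and exceeded every PBS tumor in 4 of 4 treated tumors. Entpd1 (1.77-fold) and Nt5e (1.69-fold) did so in 3 of 4, and Ptgs2 (2.37-fold) and Nos2 (1.47-fold) in 2 of 4, while Adora2a was below background in mean count. Of the 6 genes, Ido1, Ptgs2 and Entpd1 lay higher with an unadjusted p under 0.05, and 0 lay lower. By the same rule 17.7% of the whole panel was higher and 1.33% was lower, which is 133 and 10 of 750. Ido1 was the 1 gene of the 6 whose groups did not overlap, in the upward direction, against 16.8% of the panel upward and 1.47% downward. After Benjamini-Hochberg adjustment over 750 genes, edgeR called 0 of the 6 genes and 0% of the panel (lowest adjusted p = 0.171), where 143 genes had an unadjusted p under 0.05 and the Wald test of DESeq2 called 52 genes, Ido1 among them. Single tumors moved these counts, to 84 and 89 genes at that unadjusted p without STING agonist 1 or STING agonist 4, and to 1 and 7 genes called by edgeR after adjustment without PBS 3 or STING agonist 3. Ido1 alone of the 6 genes had such an unadjusted p without PBS 1 or STING agonist 1, beside 104 and 84 of the 750. Without PBS 3, Ido1, Entpd1, Nt5e and Adora2a had it, beside 160 of the 750.

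The median log2 fold change of the 6 genes was 0.81, and that of all 750 genes was 0.21. With TMM normalization, which centers the bulk of the panel, the median of the panel moved to -0.021 and the genes at an unadjusted p under 0.05 split into 87 higher and 40 lower, from 133 and 10. Of the 6 genes, Ido1 and Entpd1 had such a p with TMM normalization (0.00754 and 0.0485 by edgeR). Ptgs2 did not (log2 fold change 0.94, unadjusted p = 0.0542 by edgeR). All 6 lay above the panel median under the housekeeping scaling, and they had positive fold changes with each of the scalings tried. The plot of fold changes shows those with housekeeping and TMM scaling.

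**Figure D1:**
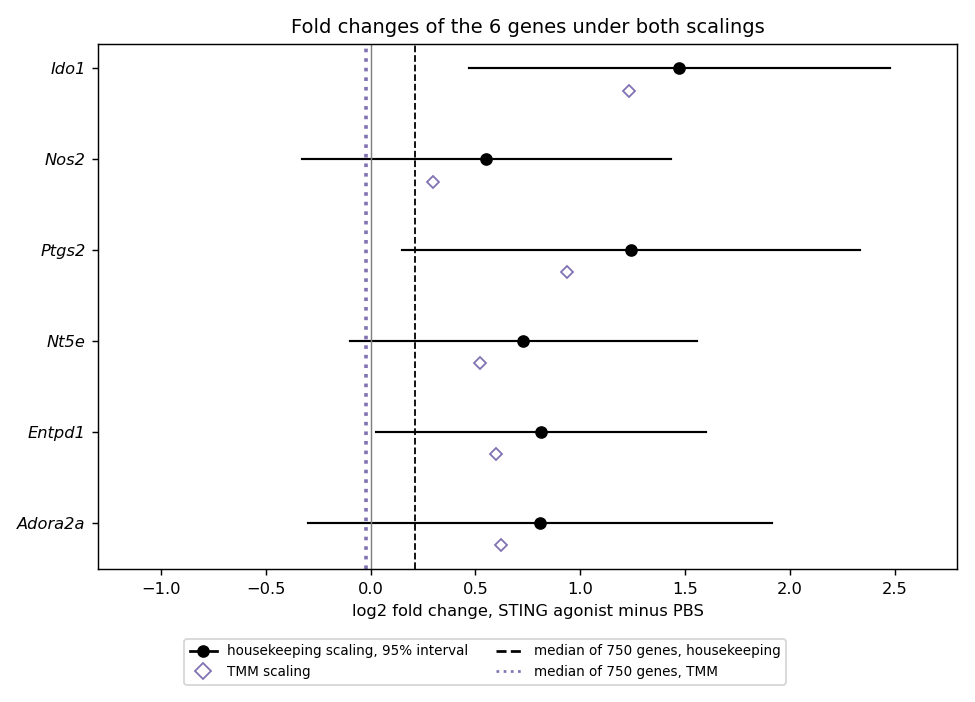
Log2 fold change (STING agonist minus PBS, x axis) of each of the 6 genes (y axis) from edgeR, n = 3 against 4. Black points and lines give the estimate and its 95% interval with housekeeping scaling, open diamonds the estimate with TMM scaling, and the vertical lines the median of 750 genes with each scaling (0.21 dashed, -0.021 dotted). The intervals of Ido1, Ptgs2 and Entpd1 lie above 0, and those of the other genes include it.

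Ido1, the first enzyme of tryptophan breakdown in immune and tumor cells, was counted at 10.2, 10.4, 18.7 and 13.3 normalized counts in PBS tumors 1 to 4 and at 60.7, 26.9, 23.5 and 41.5 in STING agonist tumors 1 to 4. Every treated tumor lay above every PBS tumor, with STING agonist 1 the highest. The means were 13.5 ± 4.57 (SD, n = 3) and 38.2 ± 16.9 (SD, n = 4), a 2.82-fold difference. The log2 fold change was 1.47 (SE 0.44, 95% interval 0.47 to 2.48), which ranked 33 of 750 genes, with an unadjusted p = 0.00906 by edgeR and an adjusted p = 0.181. An exact two-sided permutation test over the 35 arrangements gave p = 0.0571, the smallest that 3 samples against 4 allow. With all 8 tumors as separate samples the exact permutation p was 0.0286. Over all alternatives the log2 fold change lay between 1.16 (without STING agonist 1) and 2.73 (background subtracted). The unadjusted p was under 0.05 in 23 of 24, and the adjusted p ran from 0.0284 (DESeq2) to 0.408. Among PBS tumors, raw Ido1 counts were 11, 10, 26 and 10, close to the background of the same tumor except in PBS 3. Background subtraction raised counts left below 1 to 1, so the value of 2.73 depends in part on that floor.

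**Figure D2:**
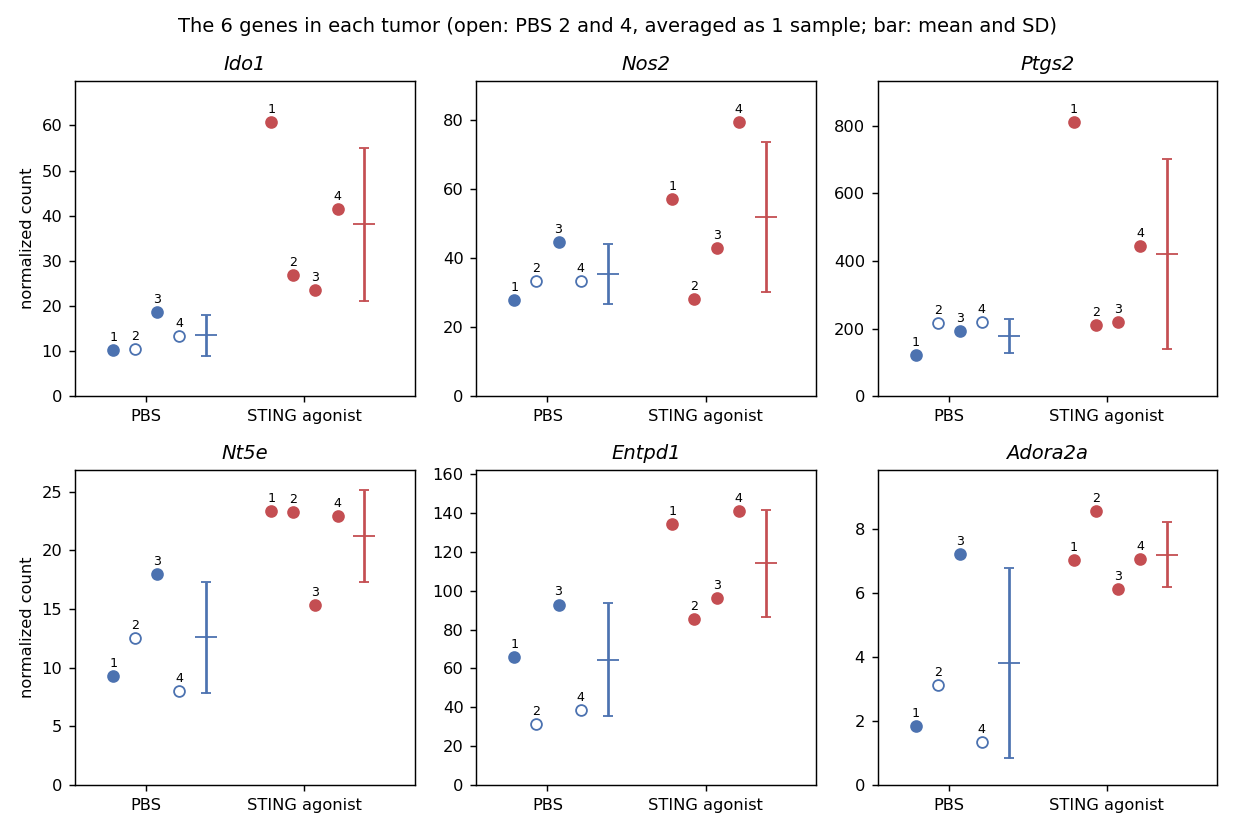
Normalized counts (y axis, linear, from 0) of the 6 genes in each tumor, with PBS in blue and STING agonist in red, numbers giving the replicate. Open circles are PBS 2 and PBS 4, averaged as 1 sample, and bars are the mean and SD (n = 3 PBS, n = 4 STING agonist). Ido1 separates the groups, from 18.7 in the highest PBS tumor to 23.5 in the lowest treated tumor.

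The panel holds 2 of 14 further genes listed for tryptophan and arginine metabolism. Tdo2, the liver enzyme that starts the same pathway as Ido1, was counted at 6.25 to 20.9 normalized counts in PBS tumors, at 7.01, 7.33 and 9.20 in STING agonist tumors 1 to 3 and at 243.5 in STING agonist 4. Slc7a11, which imports cystine, had 67.1 ± 32.2 normalized counts (SD, n = 3) with PBS and 93.1 ± 18.4 (SD, n = 4) with the agonist (log2 fold change 0.46, adjusted p = 0.484 by edgeR). Neither had an unadjusted p under 0.05.

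The IFN-γ and inflammatory pathways that induce Ido1, Nos2 and Ptgs2 were represented by 18 of 19 listed genes, with the feedback inhibitor Socs1 among them. Of these, 4 were higher with an unadjusted p under 0.05, 0 were lower, 4 did not overlap between groups in the upward direction, and their median log2 fold change was 0.30. The shares of the whole panel were 17.7% higher, 1.33% lower and 16.8% without overlap upward, near those of the list. The 4 at that p were Irf1, Irf8, Socs1 and Il1b. Socs1 was without overlap only with PBS 2 and PBS 4 averaged, since STING agonist 3 (262.6 normalized counts) lay below PBS 2 (264.6). With TMM normalization, or without STING agonist 4, 2 of the 18 had such a p, as did 127 and 89 of the 750.

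Irf1, a transcription factor induced by interferons, was counted at 1142, 831, 1000 and 882 normalized counts in PBS tumors 1 to 4 and at 2023, 2050, 1449 and 2517 in treated tumors 1 to 4. All treated tumors lay above all PBS tumors (log2 fold change 1.01, SE 0.21, adjusted p = 0.171 by edgeR). Ifng itself was near background at 3.70 to 8.64 normalized counts in PBS tumors and at 17.5, 12.2, 5.11 and 15.9 in treated tumors 1 to 4, with the lowest treated tumor, number 3, inside the PBS range. Socs1, a feedback inhibitor of this pathway, had a log2 fold change of 0.55, and Jak2, one of its kinases, 0.36. Among treated tumors Irf1 was highest in STING agonist 4 and Ido1 in STING agonist 1, and a link between the 2 genes was not tested.

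**Figure D3:**
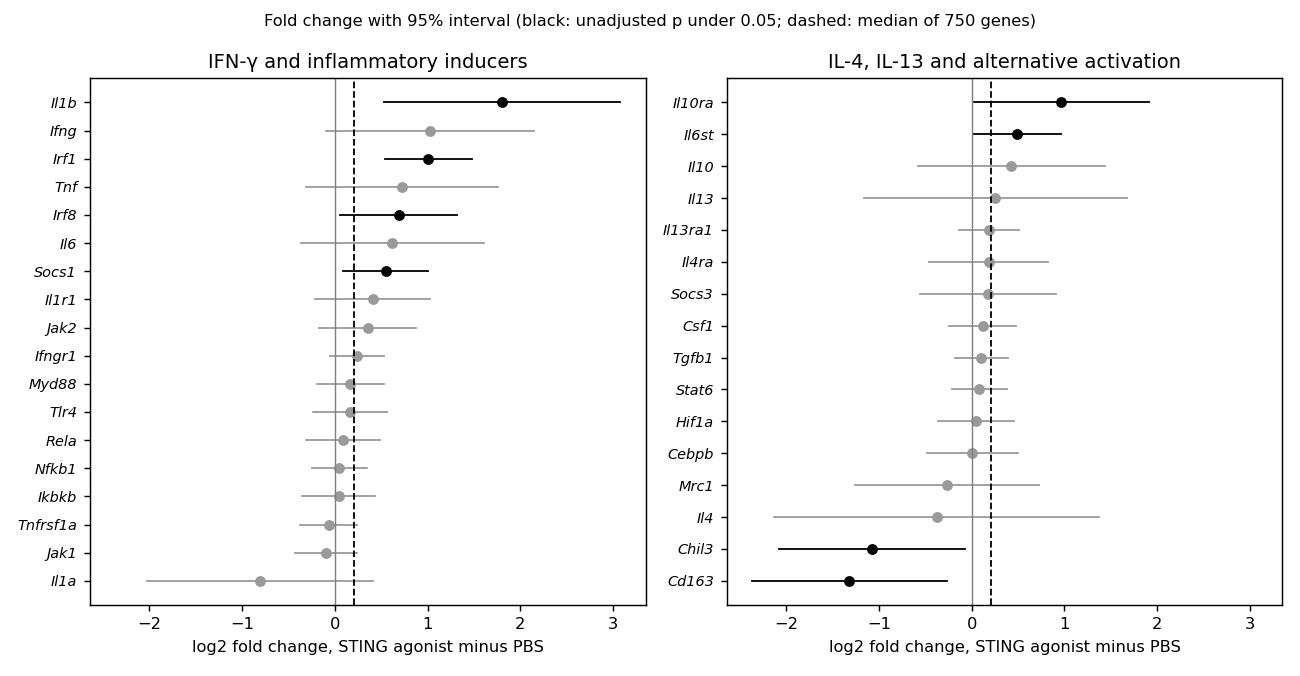
Log2 fold change (x axis, STING agonist minus PBS, edgeR, n = 3 against 4) with its 95% interval for listed genes on the panel. On the left are the 18 genes of the IFN-γ and inflammatory pathways, which include the inhibitor Socs1. On the right are the 16 genes of IL-4 and IL-13 signaling and alternative activation. Black marks an unadjusted p under 0.05, gray the rest, and the dashed line is the panel median of 0.21. On the left 4 genes are black, all higher, and on the right 2 are higher and 2 lower.

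Hepatocyte genes were measured beside Tdo2, which the liver expresses strongly. Of 15 listed hepatocyte markers 10 were on the panel, and all 10 were highest in STING agonist 4, where they summed to 1425 normalized counts against 47.7 to 104.5 in the other 7 tumors. Ambp, a plasma protein precursor made by hepatocytes and the most abundant of the 10, reached 762 in that tumor and 2.44 to 11.7 elsewhere. The part of hepatocyte RNA in the Tdo2 values was not tested.

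**Figure D4:**
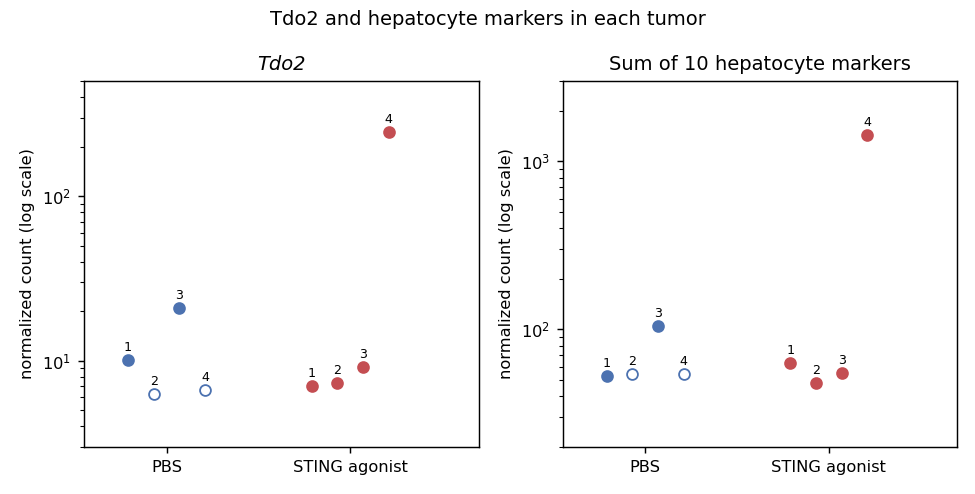
Normalized counts (y axis, log scale) of Tdo2 (left) and of the summed 10 hepatocyte markers (right) in each tumor, with PBS in blue (open for PBS 2 and PBS 4) and STING agonist in red, numbers giving the replicate. STING agonist 4 stands above the other 7 tumors in Tdo2 (243.5) and in the marker sum (1425).

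Nos2, which encodes inducible nitric oxide synthase, was counted at 27.8, 33.3, 44.7 and 33.2 normalized counts in PBS tumors 1 to 4 and at 57.2, 28.1, 42.9 and 79.4 in treated tumors 1 to 4. STING agonist 1 and 4 lay above all PBS tumors, and the other two lay among them. The means were 35.4 ± 8.57 (SD, n = 3) and 51.9 ± 21.8 (SD, n = 4), and the log2 fold change of 0.55 (SE 0.39, unadjusted p = 0.189, adjusted p = 0.470 by edgeR) was within the spread between tumors. Without STING agonist 4 it was 0.27, and with TMM, DESeq2 size factors or the total count as the scale it was 0.30, 0.28 or 0.32.

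Genes of IL-4 and IL-13 signaling and of alternative activation were represented by 16 of 17 listed genes, with a median log2 fold change of 0.11 against 0.21 on the panel. At an unadjusted p under 0.05, 2 of the 16 were higher (Il10ra and Il6st) and 2 were lower (Chil3 and Cd163), where the panel had 17.7% higher and 1.33% lower. Il10ra and Il6st were also the 2 genes of the list whose groups did not overlap upward, and 0 did so downward. The panel had 16.8% upward and 1.47% downward. With TMM normalization the 2 lower ones were the only genes of the list at such a p, beside 87 higher and 40 lower of the 750, and without STING agonist 4 there was 1 such gene, beside 89 of the 750. Chil3, a chitinase-like protein of alternatively activated macrophages, was counted at 227, 303, 464 and 315 normalized counts in PBS tumors 1 to 4 and at 94.6, 114, 315 and 108 in treated tumors 1 to 4. STING agonist 1, 2 and 4 lay below all PBS tumors and STING agonist 3 did not (log2 fold change -1.08, SE 0.44, adjusted p = 0.236 by edgeR). Cd163, a scavenger receptor of macrophages, had 41.8 ± 22.4 normalized counts (SD, n = 3) against 16.8 ± 5.49 (SD, n = 4), with overlap. Mrc1, which encodes the mannose receptor CD206, had 302.1 ± 164 (SD, n = 3) against 252 ± 102 (SD, n = 4), a log2 fold change of -0.27 within the spread between tumors. With all 8 tumors separate it was -0.028, and over the alternatives it changed sign, from -0.65 to 0.15.

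Il4 and Il13 were themselves at 1.04 to 11.5 normalized counts, at or near background, and their receptor chain Il4ra and its transcription factor Stat6 had log2 fold changes of 0.18 and 0.083, which turned to -0.015 and -0.17 with TMM normalization. Hif1a, the oxygen-regulated factor that acts on Nos2 and Nt5e, had 1574 ± 211 normalized counts (SD, n = 3) with PBS and 1629 ± 291 (SD, n = 4) with the agonist, a log2 fold change of 0.050 that turned to -0.22 with TMM normalization. Cebpb had 0.0073 and -0.27. The anti-inflammatory cytokine Il10 was near background, with 7.08 ± 2.98 (SD, n = 3) and 9.53 ± 3.38 (SD, n = 4) normalized counts. None of these 7 genes had an unadjusted p under 0.05. Hsd11b1, which regenerates active glucocorticoid and is in none of the lists, was counted at 249, 614, 179 and 642 normalized counts in PBS tumors 1 to 4 and at 105, 153, 137 and 191 in treated tumors 1 to 4. STING agonist 1 to 3 lay below all PBS tumors and STING agonist 4 did not (log2 fold change -1.25, SE 0.41, adjusted p = 0.191 by edgeR). The highest values were those of the near-identical PBS 2 and PBS 4. Over the alternatives the log2 fold change of Hsd11b1 ran from -1.67 to -0.54, with an unadjusted p under 0.05 in 21 of 24.

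Ptgs2 encodes cyclooxygenase 2, the inducible enzyme that commits arachidonic acid to prostaglandins. Promoter windows were at hand for 3 of the 6 genes (Ptgs2, Nt5e and Entpd1, the last with 2 windows), and that of Ptgs2 is shown because a searched motif was found in it alone. The sequence is the RefSeq GRCm38.p6 window chr1:150099781-150100080, plus strand, from 250 bases before to 50 after the annotated start of the gene, and its capitals mark the 6 bases covered by a hypoxia response element core, ACGTG, read on the plus strand and, overlapping it, on the minus strand.

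Ptgs2: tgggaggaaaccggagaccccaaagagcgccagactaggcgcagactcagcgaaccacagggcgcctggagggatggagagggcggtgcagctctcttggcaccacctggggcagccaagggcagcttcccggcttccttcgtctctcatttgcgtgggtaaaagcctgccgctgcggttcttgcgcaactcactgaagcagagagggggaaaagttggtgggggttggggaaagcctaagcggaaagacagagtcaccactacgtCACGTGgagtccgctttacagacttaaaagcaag

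On the plus strand the motif begins at base 18, counted from 1 at the annotated start, and 19.7% of 32544 mouse promoter windows of that length hold it. The gamma-activated site TTCNNNGAA (in 8.33% of all windows), the interferon-stimulated response element core GAAANNGAA (8.53%) and the NF-kB form GGANTTTCC (1.26%) were searched on both strands too, and these letters were not in the 4 windows.

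The counts of Ptgs2 were 123, 218, 192 and 221 normalized counts in PBS tumors 1 to 4 and 811, 212, 220 and 446 in treated tumors 1 to 4. STING agonist 1 and 4 lay above all PBS tumors, while STING agonist 2 and 3 lay within the PBS range, so the group mean rested on 2 tumors. The means were 178 ± 49.6 (SD, n = 3) and 422 ± 281 (SD, n = 4), a 2.37-fold difference. The log2 fold change was 1.24 (SE 0.48, 95% interval 0.15 to 2.34), ranked 49 of 750, with an unadjusted p = 0.0300 and an adjusted p = 0.223 by edgeR, and the exact two-sided permutation test gave p = 0.114. Without STING agonist 1 the log2 fold change was 0.72 with an unadjusted p = 0.0772 by edgeR. Leaving out PBS 1 or PBS 3 also took that p above 0.05, to 0.104 and 0.0646. Over the alternatives the adjusted p lay between 0.0764 and 0.506, and the unadjusted p was under 0.05 in 15 of 24.

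Il1b, an inflammatory cytokine that induces Ptgs2, was counted at 12.9, 38.5, 31.7 and 34.6 normalized counts in PBS tumors 1 to 4 and at 187, 59.9, 46.0 and 89.1 in treated tumors 1 to 4. All treated tumors lay above all PBS tumors (log2 fold change 1.80, SE 0.56, adjusted p = 0.181 by edgeR). STING agonist 1 and 4 were the highest, as for Ptgs2 and also for Ido1, Nos2, Entpd1 and Ptprc. Whether Il1b acted on Ptgs2 was not tested. Tnf had 12.2 ± 0.677 normalized counts (SD, n = 3) against 20.3 ± 10.5 (SD, n = 4), with STING agonist 1 the highest at 32.7 and STING agonist 3 the lowest of all 8 tumors at 9.20. Il6 lay between 4.17 and 18.7 normalized counts in the 8 tumors and did not separate the groups.

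Of 15 further genes listed for prostaglandins and leukotrienes 4 were on the panel, with none at an unadjusted p under 0.05 in either direction, against 17.7% higher and 1.33% lower on the panel, and a median log2 fold change of -0.38 against 0.21. Anxa1, which restrains phospholipase A2, had 3295 ± 1301 normalized counts (SD, n = 3) against 2821 ± 646 (SD, n = 4), and Pla2g6, a phospholipase A2, had 93.3 ± 9.71 (SD, n = 3) against 81.2 ± 6.65 (SD, n = 4). Pla2g1b and the prostaglandin D2 receptor Ptgdr2 were below background, at mean counts of 6.71 and 5.57. With TMM normalization 1 of the 4 was lower at such a p, as were 40 of the 750.

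Entpd1 encodes CD39, which takes ATP and ADP to AMP on macrophages, regulatory T cells and endothelium. It was counted at 65.7, 31.2, 92.9 and 38.6 normalized counts in PBS tumors 1 to 4 and at 134, 85.6, 96.1 and 141 in treated tumors 1 to 4. STING agonist 1, 3 and 4 lay above all PBS tumors, and STING agonist 2 lay below PBS 3. The means were 64.5 ± 29.0 (SD, n = 3) and 114 ± 27.6 (SD, n = 4), a 1.77-fold difference, with a log2 fold change of 0.81 (SE 0.35, 95% interval 0.027 to 1.60). The unadjusted p was 0.0442 and the adjusted p = 0.247 by edgeR, and the exact two-sided permutation test gave p = 0.114. That unadjusted p went above 0.05 without PBS 1 (0.0929), STING agonist 1 (0.0973) or STING agonist 4 (0.0968). It was under 0.05 in 14 of 24 alternatives, over which the adjusted p ran from 0.114 to 0.483.

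Entpd1 is carried by leukocytes and endothelium, and their markers were read beside it. Ptprc, which encodes the leukocyte antigen CD45, was counted at 108, 42.7, 111 and 41.2 normalized counts in PBS tumors 1 to 4 and at 257, 166, 140.0 and 267 in treated tumors 1 to 4. The lowest values of both genes were those of PBS 2 and PBS 4. Of 10 listed macrophage and monocyte markers 9 were on the panel, and 2 were higher (Emr1 and Ccr2) and 1 lower (Marco) at an unadjusted p under 0.05, against 17.7% and 1.33% of the panel. The 9 markers summed to 1599, 1058, 2465 and 1049 normalized counts in PBS tumors 1 to 4 and to 2786, 1802, 2063 and 2667 in treated tumors 1 to 4, with Cd68 the most abundant. Csf1r, the receptor for the macrophage growth factor CSF-1, had 150.0 ± 97.6 (SD, n = 3) against 294 ± 50.5 (SD, n = 4). Its groups did not overlap, as for 16.8% of the panel upward, and by edgeR its unadjusted p was 0.0787 and its adjusted p 0.323. Of the 7 endothelial markers on the panel, Pecam1 was the most abundant. The 7 summed to 378 to 545 in PBS tumors and to 633 to 682 in treated tumors. At an unadjusted p under 0.05, 2 of them were higher. Without STING agonist 4 it was 1 of them, where the panel had 79 higher and 10 lower of 750. The part of cell numbers in the Entpd1 values was not tested.

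Nt5e encodes CD73, which takes AMP to adenosine. It was counted at 9.25, 12.5, 18.0 and 7.98 normalized counts in PBS tumors 1 to 4 and at 23.4, 23.2, 15.3 and 22.9 in treated tumors 1 to 4. STING agonist 1, 2 and 4 lay close together above all PBS tumors, and STING agonist 3 lay below PBS 3. The means were 12.6 ± 4.74 (SD, n = 3) and 21.2 ± 3.93 (SD, n = 4), and the log2 fold change was 0.73 (SE 0.36, 95% interval -0.099 to 1.56, unadjusted p = 0.0775, adjusted p = 0.323 by edgeR). With raw counts of 6 to 26, above the background of the same tumor in 6 of 8, these values carry counting error, whose share of their spread was not measured. Without PBS 3 the log2 fold change was 1.10 with an unadjusted p = 0.0223 by edgeR, and that p was under 0.05 in 5 of 23 alternatives. With background subtracted, and counts left below 1 raised to 1, the log2 fold change was 1.68 (adjusted p = 0.346 by edgeR).

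The 2 enzymes act in sequence, and their balance was compared within each tumor, where the scaling cancels apart from a pseudocount of 1. The log2 ratio of Nt5e to Entpd1 was -2.22 ± 0.53 (SD, n = 3) with PBS and -2.36 ± 0.35 (SD, n = 4) with the agonist. The treated tumors lay between -2.57 and -1.84, inside the PBS range of -2.70 to -1.26. The difference of -0.15 was within the spread between tumors (exact permutation test, two-sided, p = 0.571), and with PBS 4 alone standing for the near-identical pair it was 0.019. With background subtracted, and counts left below 1 raised to 1, it changed sign to 1.35 (exact permutation test, p = 0.114). The ratio is of probe counts and is not the ratio of the 2 transcripts.

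**Figure D5:**
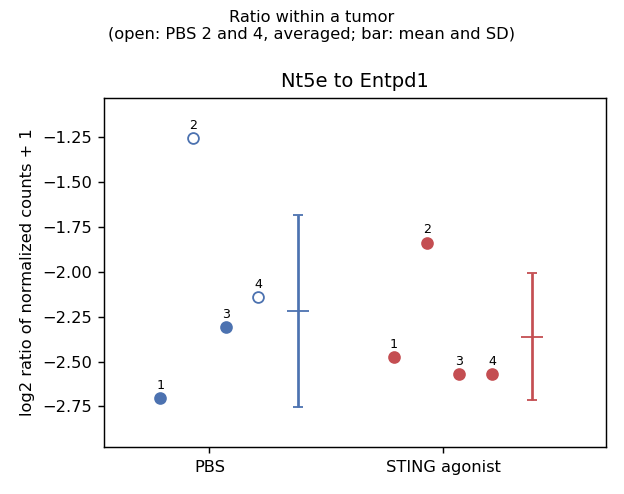
Log2 ratio within a tumor (y axis) of Nt5e to Entpd1, from normalized counts plus 1, with PBS in blue (open for PBS 2 and PBS 4, averaged as 1 sample) and STING agonist in red, numbers giving the replicate and bars the mean and SD (n = 3 PBS, n = 4 STING agonist). The groups overlap, and the highest ratio, -1.26, is that of PBS 2.

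Adora2a, which encodes the adenosine receptor of T cells that couples to cyclic AMP, was below background in mean count, with raw counts of 2, 3, 10 and 1 in PBS tumors 1 to 4 and of 6, 7, 6 and 8 in treated tumors 1 to 4. Only STING agonist 2 and 4 exceeded their own background (5.03 and 5.50 counts), and PBS tumors 1 to 4, with backgrounds of 10.4, 11.3, 11.3 and 8.27, did not. Its log2 fold change of 0.81 (SE 0.49, adjusted p = 0.403 by edgeR) rests on counts near or under background, and without PBS 3, the PBS tumor with the most counts, it was 1.73 with an unadjusted p = 0.0075 by edgeR.

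Of 12 further genes listed for adenosine and nucleotides 4 were on the panel, with a median log2 fold change of 0.18 against 0.21 for all genes. Dpp4, which encodes the adenosine deaminase-binding protein CD26, was counted at 5.55, 4.17, 10.1 and 5.32 normalized counts in PBS tumors 1 to 4 and at 18.7, 8.56, 14.3 and 37.1 in treated tumors 1 to 4. STING agonist 1, 3 and 4 lay above all PBS tumors. It was the 1 gene of the 4 at an unadjusted p under 0.05, where 17.7% of the panel was higher (log2 fold change 1.50, SE 0.56, adjusted p = 0.217 by edgeR), and without STING agonist 4 there was none. Ada, the deaminase that removes adenosine, had 264 ± 33.1 normalized counts (SD, n = 3) and 270 ± 50.4 (SD, n = 4). Cd38, an ectoenzyme of a parallel route from NAD to adenosine, had 169.9 ± 67.1 (SD, n = 3) and 212 ± 38.0 (SD, n = 4).

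Cells that could carry these genes were followed by markers, whose counts are to be read against the 17.7% of the panel that was higher and the 1.33% that was lower at the same p. Of 7 T cell markers 4 were higher at an unadjusted p under 0.05 (Cd3e, Cd3g, Cd8a and Cd8b1). Without STING agonist 4 it was 1 of them, where the panel had 79 higher and 10 lower of 750. Cd8a was counted at 31.4, 10.4, 22.3 and 14.6 normalized counts in PBS tumors 1 to 4 and at 82.9, 35.4, 27.6 and 68.8 in treated tumors 1 to 4. Cd8a was highest in STING agonist 1 and 4, as were Il1b, Ptprc, Ptgs2, Ido1, Nos2 and Entpd1, but not Nt5e or Adora2a. Of 4 dendritic cell markers 1 was higher (Itgax), of 4 NK cell markers 1 (Klrk1), and of 6 stromal markers 1 was higher (Col1a1) and 1 lower (Col3a1). Without STING agonist 4 there was no such NK cell marker and 1 such stromal marker, a lower one, beside 79 higher and 10 lower of the 750. With TMM normalization 2 stromal markers were lower and 0 higher, where the panel had 40 lower and 87 higher of 750. None of the 5 neutrophil, 4 regulatory T cell, 5 B cell, 4 mast cell or 3 epithelial markers had an unadjusted p under 0.05, and Foxp3, which defines regulatory T cells, was at 0.925 to 7.94 normalized counts, below background in mean count. The myeloid marker Itgam had 156 ± 80.5 (SD, n = 3) and 218 ± 72.7 (SD, n = 4), and Cd68 563 ± 113 (SD, n = 3) and 695 ± 174 (SD, n = 4), both with overlap.

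Across tumors, PBS 3 held the highest PBS value of 5 of the 6 genes, and STING agonist 1 the highest treated value of 3. For members with at least 20 counts on average, the panel genes with the most similar profile over the 7 samples were ranked by Pearson's r of log2 values, as a description. Those nearest to Ido1 were Cd36 (r = 0.986), Ccrl2 (0.980) and Klrc1 (0.977). Those nearest to Entpd1 were Cfp (0.992), Lcp1 (0.986) and C3ar1 (0.985), and those nearest to Ptgs2 were Mef2c (0.974), Ccl7 (0.973) and Fadd (0.960). Nos2 was nearest to Lag3 (0.980), Tnfrsf1b (0.979) and Thy1 (0.920).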

How the data were processed

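RNA of 8 peritoneal tumors was measured by NanoString nCounter on 784 probes, of which 20 were for housekeeping genes, 8 were negative controls and 6 positive controls. The authors deposited raw counts per probe, without scaling or background subtraction. The paper names nSolver for data analysis and, separately, describes normalization to the housekeeping gene and analysis in R. No version of nSolver is given in the sources used here. In 1 sample, 2 blank rows were dropped. Genes were matched by probe symbol. The rounded mean of PBS 2 and PBS 4 was used as 1 sample. The 20 housekeeping counts of a sample, as a geometric mean, stood for its library size. STING agonist was compared with PBS in edgeR 4.0.16 under R 4.3.3 (quasi-likelihood test), without covariate or filter, and p-values were adjusted by Benjamini-Hochberg over 750 genes. Not reported here, and left out of the counts of members and lists but not of the 750, are 3 genes, 2 of them among the 8 chosen as members. A ratio was compared by exact permutation (scipy 1.17.1, Python 3.11.15), in which the smaller tail is doubled. The edgeR script was tested on simulated data.

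Alternatives were TMM, DESeq2 size factors, the total count, the positive controls or the 19 housekeeping genes that reached 100 counts in every tumor as the scale; filters at 20 counts or at background; background subtraction; DESeq2 1.42.0 with its Wald test; limma 3.58.1; the methods' own test of each gene; pseudocounts of 0.1 and 20; all 8 tumors separate; PBS 2 and PBS 4 left out; the replicate number as a block; and each tumor left out. All 8 tumors separate without STING agonist 4 was chosen after seeing the data.

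The members and lists were chosen with earlier results of these data known. The genes named were the other 6 members, a fixed set from the lists together with Hsd11b1, which is in none of them, and for each member with at least 20 counts the 3 most similar genes. Epcam, Cdh1, Slc7a11, Anxa1, Irf8, Il10ra, Il6st, Cd163, Emr1, Ccr2, Marco, Pecam1, Itgax, Klrk1, Col1a1, Col3a1, Cd3e, Cd3g and Cd8b1 were listed genes whose naming was decided once their values were known. From the fixed set, Retnla and Ptger4 were not measured. Promoters came from RefSeq (GRCm38.p6).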

Additional observations from a re-analysis of the deposited data

Results flagged for a closer look

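In 37 genes with named values, the 4 treated tumors were searched for 1 tumor far from the rest, by dividing the gap between the highest or lowest tumor and its nearest neighbor by the whole range of these tumors. Values past the limit of Dixon's test for 4 values stood out. This happens by chance in about 1 of 20 groups, or 1.85 of 37 genes, and 6 were picked. The 37 genes are no neutral sample, since they were chosen with earlier results of these data known, and the 6 are described without weighing them against that number.

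Nt5e was low in STING agonist 3 (15.3 normalized counts against 22.9 to 23.4 in the other treated tumors, a share of 0.948). Chil3 was high in STING agonist 3 (315 against 94.6 to 114, 0.913). Ada was low in STING agonist 2 (194 against 293 to 297, 0.969). Ptgdr2, which is below background, was high in STING agonist 3 (11.2 against 1.22 to 2.65, 0.858). Tdo2 was high in STING agonist 4 (243.5 against 7.01 to 9.20, 0.991), and so was Ambp (762 against 2.44 to 11.7, 0.988). The cause of these values was not tested.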

How the results depend on the processing

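Ido1, Nos2, Ptgs2, Nt5e, Entpd1 and Adora2a kept a positive log2 fold change in every alternative run. Leaving out 1 tumor at a time moved Ido1 between 1.16 and 1.80, Nos2 between 0.27 and 0.76, Ptgs2 between 0.72 and 1.46, Nt5e between 0.55 and 1.10, Entpd1 between 0.69 and 1.18 and Adora2a between 0.49 and 1.73. The ratio of Nt5e to Entpd1 ran from -0.39 to 0.019. That ratio turned positive with background subtraction (1.35), which took Nt5e to 1.68 and Ido1 to 2.73. In that setting a count left below 1 was raised to 1. Raw counts in PBS tumors 1, 2 and 4 were 10, 12 and 6 for Nt5e and 11, 10 and 10 for Ido1. The backgrounds of these tumors were 10.4, 11.3 and 8.27, so the shifts depend in part on that floor, whose share was not tested. The DESeq2 Wald test took Ido1 (1.48) past the threshold, with an adjusted p of 0.0284 in a range of 0.0284 to 0.408.

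DESeq2 called 52 panel genes where edgeR called 0, and leaving out 1 tumor gave 0 to 7 calls by edgeR (1 without PBS 3, 7 without STING agonist 3). At an unadjusted p under 0.05, leaving out 1 tumor gave 84 to 160 genes, 77 to 153 higher and 7 to 21 lower. The genes higher and lower were 87 and 40 with TMM, 81 and 45 with DESeq2 size factors and 68 and 31 with the total count. There were 87 higher with the methods' test on normalized counts, and 17 lower without PBS 2 and PBS 4. Among lists whose count moved by over 1.5 times, such a p was held with TMM by 2 inducer, 2 alternative activation, 1 prostaglandin, 1 endothelial and 1 epithelial gene, and with all 8 tumors separate by 3 hepatocyte genes. In lists that moved without STING agonist 4, it was held there by 2 inducer, 1 alternative activation, 0 adenosine, 1 T cell, 0 NK cell, 1 endothelial and 1 stromal gene. The panel had 79 higher and 10 lower there. Among named genes, TMM turned Il4ra (-0.015), Stat6 (-0.17), Hif1a (-0.22), Cebpb (-0.27) and Ada (-0.22) negative, all 8 tumors separate turned Cebpb (-0.072), and leaving out STING agonist 4 turned Cebpb (-0.0032), Ada (-0.014), Il13 (-0.071) and Tdo2 (-0.72).

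Tumors of the same number did not deviate together (correlations of -0.06, -0.09, -0.28 and -0.12 over 519 genes), and no pairing by number was seen. The near-identical PBS 2 and PBS 4 cannot each match a different treated tumor, so this check cannot exclude an experiment shared by number. With the replicate block and all 8 tumors separate, Ido1 was at 1.46 and 172 genes had an unadjusted p under 0.05. Depth limits Nt5e and Adora2a, whose mean counts of 17.7 and 5.86 stood beside a mean background of 8.62.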
